A study of Mus musculus with 4 samples.

Results

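The genes described are the CTLA2 inhibitors Ctla2a and Ctla2b and 8 cathepsins (Ctsb, Ctsc, Ctsd, Ctsh, Ctsk, Ctsl, Ctss and Ctsz). They are the rows whose symbol equals one of these names, 10 of 21993 genes in each deposited file, and all 10 were found. The RNA came from pregnant mice at gd11.5 of gestation whose mates were B6 males, and the cells were labelled as uterine NK cells sorted by FACS (CD3-, CD45+, NK1.1+). There were 2 libraries from mice that carried Ncr1Cre, in which Cre recombinase is driven by the NK-cell gene Ncr1, and 2 from control mice without Cre. The labels do not say whether each library is a separate mouse, so p-values cover only the spread among these 4 libraries, and that spread may be technical. Levels are in FPKM, which counts sequenced fragments per kilobase and relative to those mapped in the library, so genes can be compared per length.

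Cathepsins are proteases of the lysosome, made as inactive precursors in which a propeptide blocks the active site. Cathepsins B, C, H, K, L, S and Z use a cysteine in the active site, and cathepsin D uses aspartic acid. The CTLA2 proteins resemble the propeptide of cathepsin L without the protease, and CTLA2-alpha inhibits cathepsin L-type enzymes. In mouse implantation, trophoblast makes cathepsins B and L, and the decidua makes inhibitors of these enzymes.

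Both Ctla2 genes lie on chromosome 13 of the mouse reference. Of the genes listed for this comparison, Prl2c2, Prl3d1, Prl3b1 and Prl7a2 came first there. They were followed by Ctla2b, Tpbpb, Ctla2a and Tpbpa. Then came the placental cathepsins Ctsj, Ctsq, Ctsr, Cts6, Cts8, Cts7, Ctsm and Cts3, and last Ctsl. The 2 Ctla2 genes are close copies: over the 339 aligned bases of their coding sequences 326 were identical (96.17%). The coding sequences are shown because they bear on how far reads of the 2 genes can be told apart. The stretches cover bases 73 to 222 of the Ctla2a coding sequence and bases 1 to 150 of the Ctla2b coding sequence (GENCODE M21, transcripts Ctla2a-201 and Ctla2b-201), and capitals mark the 6 bases that differ.
Ctla2a: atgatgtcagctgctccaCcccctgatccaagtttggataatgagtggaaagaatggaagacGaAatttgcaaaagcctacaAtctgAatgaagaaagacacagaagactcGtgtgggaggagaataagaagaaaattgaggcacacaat
Ctla2b: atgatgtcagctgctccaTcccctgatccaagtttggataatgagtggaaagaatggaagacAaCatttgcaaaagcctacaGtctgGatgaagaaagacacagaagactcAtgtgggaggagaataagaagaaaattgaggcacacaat
Of the distinct 50-base windows in the annotated Ctla2b transcripts, 14.8% also occurred in a Ctla2a transcript, and 1.47% of 100-base windows did. The reference also annotates exons of Gm49391 over both genes on the same strand, with Gm49393 over Ctla2a and Gm49392 over Ctla2b. How the authors treated reads that map to both genes is not given in the sources used here. The separate Ctla2a and Ctla2b values are therefore uncertain.

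The promoters of the pair are shown because the copies, although alike in sequence, were listed at very different levels. Those separate levels are uncertain, as said above, and whether the promoters bear on them was not tested. These are the 250 bases before each annotated start in RefSeq (GRCm38.p6, minus strand), chr13:60936626-60936875 for the first listed start of Ctla2a and chr13:60897448-60897697 for Ctla2b. Of 228 aligned bases, 208 were identical (91.2%), and capitals mark bases that differ or have no partner in the alignment. The windows are offset, so the run of capitals that ends Ctla2b lacks a partner only because the Ctla2a window stops earlier. In the window of the other listed Ctla2a start, nearly the same bases follow.
Ctla2a: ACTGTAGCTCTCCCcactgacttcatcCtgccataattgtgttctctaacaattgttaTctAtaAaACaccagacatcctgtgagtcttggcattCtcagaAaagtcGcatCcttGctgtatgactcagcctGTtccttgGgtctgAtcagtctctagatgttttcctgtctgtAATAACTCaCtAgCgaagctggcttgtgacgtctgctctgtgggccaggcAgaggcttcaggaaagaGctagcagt
Ctla2b: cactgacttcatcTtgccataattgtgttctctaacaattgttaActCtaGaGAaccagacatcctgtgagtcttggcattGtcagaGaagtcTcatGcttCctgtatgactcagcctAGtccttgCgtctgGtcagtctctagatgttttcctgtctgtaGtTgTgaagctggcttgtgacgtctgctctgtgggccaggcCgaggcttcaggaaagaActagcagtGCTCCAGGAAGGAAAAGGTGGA

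The sort label was checked first. Ncr1 had 0 and 0.15 FPKM in Ncr1Cre, against 0.14 and 0.36 FPKM in control, and Klrb1c, the gene of NK1.1, was below 1 FPKM in all 4 libraries. Ptprc, the gene of CD45, had 4.39 and 5.16 FPKM in Ncr1Cre, against 2.89 and 2.57 FPKM in control. Of 14 NK-cell markers, 6 reached a mean of 1 FPKM, and by the test described below 4 of these rose and 0 fell. After the 3 scalings described below, 2 or 3 rose. The list summed to 45.4 and 45.3 FPKM in Ncr1Cre libraries, against 30.3 and 29.6 FPKM in control libraries. The granzymes Gzmc, Gzmd, Gzme, Gzmf and Gzmg were not in this list and are given below. Markers of other uterine and placental cells were far higher: 12 epithelial markers summed to 48634 and 51587 FPKM in Ncr1Cre libraries, against 10116 and 10232 FPKM in control libraries, and 13 markers of stroma and fibroblasts to 11726 and 11875 FPKM, against 24879 and 25631 FPKM in control libraries. The epithelial sums rest mostly on 1 gene, Prap1, with 46369 and 49335 FPKM in Ncr1Cre libraries, against 9530 and 9667 FPKM in control libraries. The next highest epithelial marker, Krt8, had 669 and 662 FPKM in Ncr1Cre, against 151 and 141 FPKM in control. All 6 smooth muscle markers fell, 2 of 5 tested endothelial markers rose and 1 fell, and none of the T-cell markers reached a mean of 1 FPKM. The libraries are therefore named by genotype and not as NK cells. In such bulk samples, fewer cells of a type and less RNA per cell cannot be told apart. The files give no read totals. Steps in the low values imply 20960000 to 38500000 fragments per library, at which 1 fragment on 1 kb of transcript is worth 0.0260 to 0.0477 FPKM.

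Of the 10 genes, 6 cathepsins were higher in the Ncr1Cre libraries (Ctsb, Ctsc, Ctsd, Ctsl, Ctss and Ctsz), and Ctla2a, Ctla2b and Ctsh were lower. Ctsk did not pass the test. The test was limma on log2(FPKM + 1) over the 11762 genes whose mean reached 1 FPKM, a filter that all 10 passed, with Benjamini-Hochberg adjustment and a threshold of 0.05. These 9 calls of 10 stand beside 48.5% of all tested genes called in either direction. The 6 higher stand beside 30.9% and the 3 lower beside 17.6%. The counts of the other gene lists in this text stand beside the same shares. The genotypes did not overlap for the same 9 genes, 6 higher and 3 lower, beside 76.2% of all tested genes, 46.4% higher and 29.9% lower. The median log2 fold change, Ncr1Cre minus control, was 0.67 over the 10 genes and 0.11 over all tested genes. Scaling between the libraries moved the median of all tested genes to -0.10 when each library was rescaled to the same FPKM sum, and the share of calls that were higher was 63.7% as deposited and 41.3%, 46.7% and 46.3% after rescaling to the same sum, to the same median and by quantile normalization. All 6 rises and 3 falls among the 10 genes held under these 3 scalings. For Ctla2a the quantile result adds no separate support. Its rank among all genes was the same in both libraries of a genotype, and quantile normalization gives such libraries equal values.

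**Figure D1:**
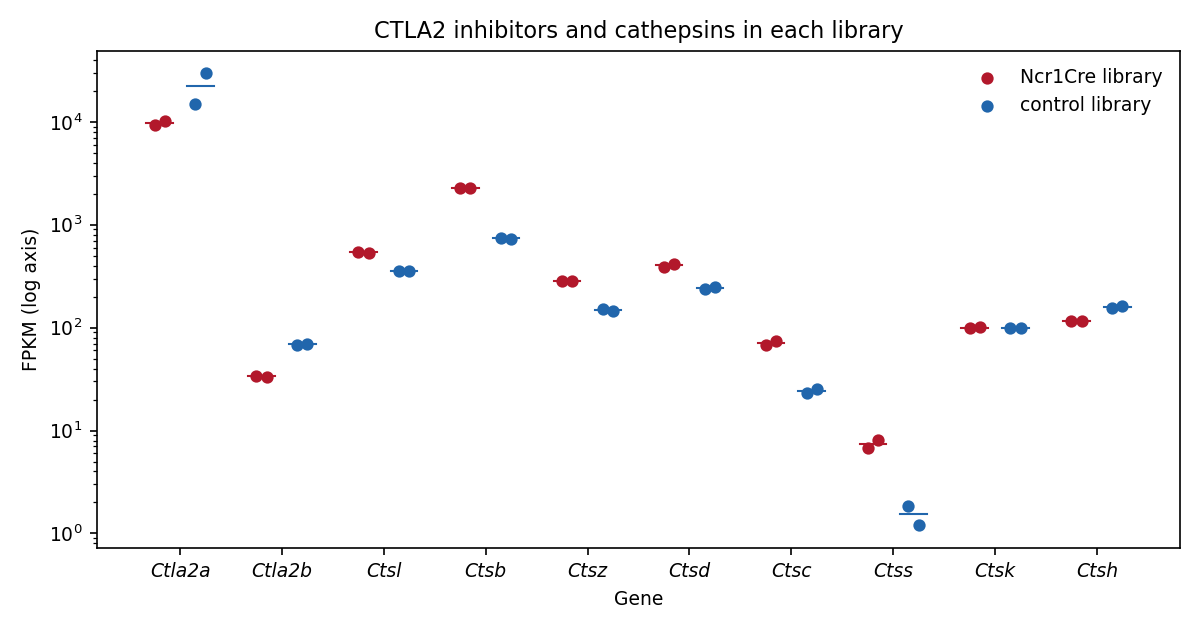
FPKM (log axis) of the 10 genes in each of the 4 libraries, with Ncr1Cre in red on the left of each pair and control in blue on the right. Points are libraries and short lines are means of 2 libraries. The Ctla2a points of the control libraries lie apart, at 15042 and 29598 FPKM, as do those of the low gene Ctss, and the libraries of a genotype lie close together for the other 8 genes.

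Ctla2a was the most abundant of the 10 genes in all 4 libraries and had rank 3 of all genes in both Ncr1Cre libraries, against rank 1 in both control libraries. It stood at 9395 and 10265 FPKM in the Ncr1Cre libraries, against 15042 and 29598 FPKM in the control libraries. Both Ncr1Cre values lay below both control values, but the control libraries differed from each other by more than the lower of them differed from the Ncr1Cre libraries. The means were 9830 ± 615 FPKM in Ncr1Cre and 22320 ± 10293 FPKM in control (SD, n = 2 each). Its log2 fold change was -1.10 (SE 0.32, 95% interval -1.92 to -0.29, limma adjusted p = 0.0385). Without control replicate 2 the log2 fold change was -0.62 (limma adjusted p = 0.0262), without control replicate 1 it was -1.59 (0.00328), and without Ncr1Cre replicate 1 it was -1.04 and no longer passed the test (0.0613). The size of this fall therefore rests on which control library is used. Over all alternatives run the limma adjusted p lay between 0.000129, under quantile normalization, and 0.0906, without a filter. Quantile normalization gives equal values to libraries in which a gene has the same rank. The lower end thus leaves out the spread of Ctla2a between the control libraries.

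The spread of Ctla2a between the control libraries was unusual among abundant genes. Its control values differed by 0.98 on the log2 scale, and of 549 genes whose mean reached 100 FPKM only 7 differed more between these libraries, while the median difference of those genes was 0.091. Between the Ncr1Cre libraries it differed by 0.13. Ctla2a made up 2.04% and 2.19% of summed FPKM in the Ncr1Cre libraries, against 3.91% and 7.46% in the control libraries. The genes whose centred log2 values over the 4 libraries lay closest to those of Ctla2a were Egfr, Cd44 and Ccnd3 (Euclidean distance 0.29, 0.32 and 0.35). Egfr, which encodes the EGF receptor, stood at 8.18 and 9.43 FPKM in Ncr1Cre libraries, against 13.4 and 22.2 FPKM in control libraries. It was picked by likeness over these same 4 libraries, so its highest value in control replicate 2 follows from the choice.

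Ctla2b, the second copy, had 33.7 and 33.3 FPKM in the Ncr1Cre libraries, against 68.5 and 70.0 FPKM in the control libraries. The libraries of each genotype lay close together for this gene, and the genotypes did not overlap. Its log2 fold change was -1.02 (SE 0.064, 95% interval -1.19 to -0.86, limma adjusted p = 0.000416). Within a library Ctla2a exceeded Ctla2b 279-fold and 308-fold in Ncr1Cre, against 220-fold and 423-fold in control, and these ratios overlapped between the genotypes.

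Ctsl, the broad endopeptidase whose type of enzyme CTLA2-alpha inhibits, had 538.5 and 536 FPKM in the Ncr1Cre libraries, against 353 and 354 FPKM in the control libraries. The SD between libraries was 1.63 FPKM in Ncr1Cre and 0.92 FPKM in control (n = 2 each), and the genotypes did not overlap. Its log2 fold change of 0.60 (SE 0.056, limma adjusted p = 0.0012) was the smallest of the 6 rises. The inhibitor genes and Ctsl moved in opposite directions, and the ratio of summed Ctla2a and Ctla2b to Ctsl was 17.5 and 19.2 in Ncr1Cre libraries, against 42.8 and 83.8 in control libraries. Rescaling whole libraries to the same sum or median leaves such a ratio as it is, while quantile normalization does not. The ratios were not tested, since the smallest p that an exact permutation test can give here is 0.333.

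**Figure D2:**
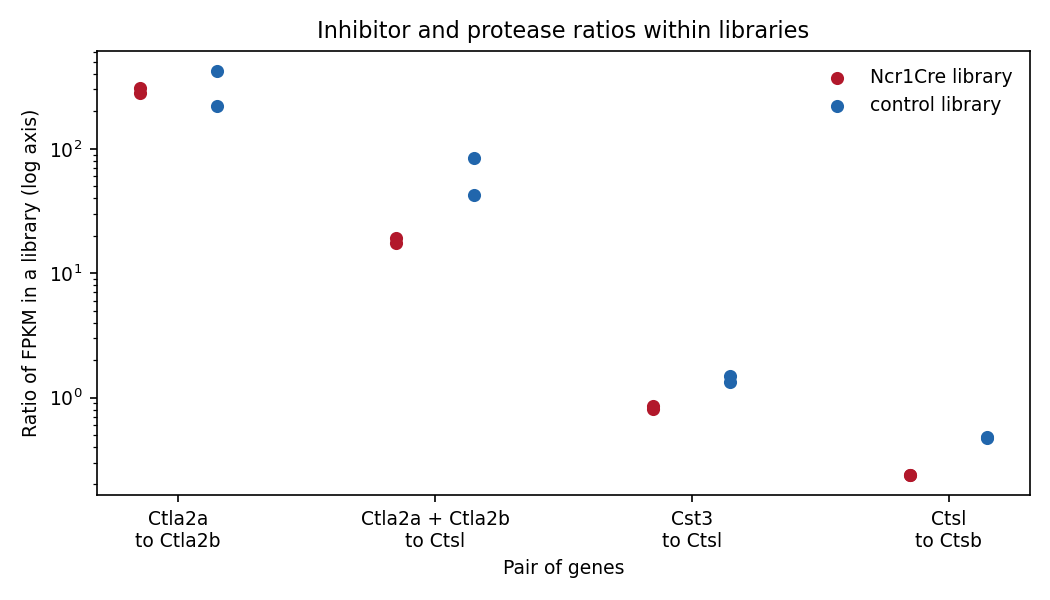
Ratios of FPKM within each library (log axis) for 4 pairs of genes, with Ncr1Cre in red on the left and control in blue on the right. Ctla2a to Ctla2b overlapped between the genotypes, while the ratio of both Ctla2 genes to Ctsl was 17.5 and 19.2 in Ncr1Cre libraries, against 42.8 and 83.8 in control libraries.

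Ctsb, a cysteine protease that also removes dipeptides from the C-terminus, was the most abundant cathepsin in every library. It had 2260 and 2254 FPKM in the Ncr1Cre libraries, against 745 and 732 FPKM in the control libraries. That is 3.06-fold, with a log2 fold change of 1.61 (SE 0.057, limma adjusted p = 0.00015), and it made Ctsb the gene of rank 15 and 16 in Ncr1Cre, against 62 and 65 in control. Ctsl rose less than Ctsb, and the Ctsl to Ctsb ratio was 0.238 in both Ncr1Cre libraries, against 0.473 and 0.484 in the control libraries. The reference annotates exons of Fdft1 on the other strand at Ctsb, and Fdft1 itself stood between 7.96 and 10.3 FPKM in all 4 libraries.

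Ctsz, which encodes a carboxypeptidase also called cathepsin X, had 285 and 284 FPKM in Ncr1Cre, against 151 and 145 FPKM in control. Ctsd, the main aspartic protease of the lysosome, had 390 and 419 FPKM in Ncr1Cre, against 239 and 247 FPKM in control. The genotypes did not overlap for either gene. Their log2 fold changes were 0.94 for Ctsz (SE 0.061, limma adjusted p = 0.000445) and 0.73 for Ctsd (SE 0.066, limma adjusted p = 0.0011). Exons of Nelfcd, listed at 7.51 to 9.42 FPKM, lie on the other strand at Ctsz. The strand setting of the counting is not given in the sources used here. On the same strand, exons of Gm49369 overlap Ctsd and exons of Gm49230 overlap Ctsl, and Gm47123 lies on the other strand at Ctsl.

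The Ctsd promoter is shown because the letters CACGTG, the core of the element that the lysosomal regulator TFEB binds, occurred at 2 places in it, starting 245 and 98 bases before the start. It is chr7:142387828-142388077 (RefSeq, GRCm38.p6, minus strand), with the motif in capitals.
Ctsd: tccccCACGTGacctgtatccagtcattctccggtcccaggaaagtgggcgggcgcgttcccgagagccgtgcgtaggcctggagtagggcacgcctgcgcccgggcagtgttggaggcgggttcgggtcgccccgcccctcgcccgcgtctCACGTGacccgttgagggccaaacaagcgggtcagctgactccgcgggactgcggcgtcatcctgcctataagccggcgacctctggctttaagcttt
The motif reads the same on both strands. It was found in 1978 of 32851 promoter windows of this length (6.02%) and in 2 of the 9 windows of the 8 member genes that matched the table, which were those of Ctsd and Ctsl (1 match, 236 bases before the start). Ctsb and Ctsh had no entry. Tfeb had 7.05 and 4.90 FPKM in Ncr1Cre, against 5.40 and 4.40 FPKM in control, which overlap. The genes of 2 related factors were lower: Tfe3 had 10.6 and 10.03 FPKM in Ncr1Cre, against 14.3 and 14.4 FPKM in control (log2 fold change -0.44, limma adjusted p = 0.00978), and Mitf had 5.32 and 4.39 FPKM in Ncr1Cre, against 7.37 and 7.99 FPKM in control (-0.57, limma adjusted p = 0.0137). These 3 genes were chosen after their values were seen.

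Ctsc and Ctss rose as well, at lower levels than the cathepsins above. Ctsc, the dipeptidyl peptidase that activates granzymes, had 67.6 and 74.1 FPKM in Ncr1Cre libraries, against 23.3 and 25.4 FPKM in control libraries (log2 fold change 1.50, SE 0.085, limma adjusted p = 0.000333). Its order with Ctla2b was exchanged: Ctsc was above Ctla2b in both Ncr1Cre libraries and below it in both control libraries. Of 7 granzyme genes, 6 rose and 0 fell, with a median log2 fold change of 1.57. Gzmg had 92.0 and 98.7 FPKM in Ncr1Cre, against 26.2 and 26.7 FPKM in control, and Gzmd, Gzmf, Gzme and Gzmc rose by 1.77, 1.72, 1.57 and 1.46 on the log2 scale. Gzmd, Gzme, Gzmf and Gzmg are related genes whose sequences were not compared here, so the value of each is uncertain. Gzma, named after its values were seen (3.69 and 2.53 FPKM in Ncr1Cre, 2.96 and 3.65 FPKM in control) did not pass the test.

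Ctss, which works in antigen-presenting cells on the invariant chain of class II molecules, was the lowest of the 10 genes in every library. It had 6.730 and 8.004 FPKM in the Ncr1Cre libraries, against 1.867 and 1.201 FPKM in the control libraries, and the genotypes did not overlap. At the implied totals these values rest on about 237 and 246 fragments in Ncr1Cre and 97 and 34 in control. The log2 fold change of 1.73 (SE 0.17, 95% interval 1.30 to 2.16, limma adjusted p = 0.00133) understates a low gene, and it was 2.22 with a pseudocount of 0.1. All 8 tested macrophage markers rose as well (11 of 12 listed were in the files), and the list summed to 102 and 100.3 FPKM in Ncr1Cre, against 29.1 and 31.2 FPKM in control. The ratio of Ctss to the macrophage gene Cd68, chosen after the values were seen, was 0.297 and 0.331 in Ncr1Cre, against 0.373 and 0.249 in control, which overlap. The part of macrophage RNA in the Ctss difference was not tested.

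Genes that work with Ctss in class II presentation were low apart from Ifi30. Of 5 tested of 8 listed, 3 rose and 0 fell, beside 30.9% higher and 17.6% lower of all tested genes. Their median log2 fold change was 0.49. The invariant chain gene Cd74 had 3.41 and 3.33 FPKM in Ncr1Cre, against 1.62 and 1.59 FPKM in control, and Ifi30, a lysosomal thiol reductase, had 50.8 and 56.9 FPKM in Ncr1Cre, against 35.4 and 36.5 FPKM in control. H2-Eb1 rose by 0.49 on the log2 scale (limma adjusted p = 0.0248), a call that was lost when libraries were rescaled to the same sum (0.0696) and under quantile normalization (0.101).

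Ctsh and Ctsk did not follow the other cathepsins. Ctsh, mainly an aminopeptidase, had 117 and 115 FPKM in the Ncr1Cre libraries, against 157 and 164 FPKM in the control libraries. It was the only one of the 8 cathepsins that fell as deposited (log2 fold change -0.47, SE 0.062, limma adjusted p = 0.00359). Ctsk, a collagen-degrading enzyme known from osteoclasts and also made by fibroblasts, had 98.8 and 100.3 FPKM in Ncr1Cre, against 100.1 and 98.9 FPKM in control. The values of the genotypes overlapped, with a log2 fold change of 0.00 and a 95% interval of -0.15 to 0.16. With libraries rescaled to the same sum Ctsk passed the test as lower (log2 fold change -0.24, limma adjusted p = 0.033), and with the other 2 scalings it was lower without passing.

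Stromal markers, by contrast with Ctsk, were mostly lower in the Ncr1Cre libraries. Of the 13 genes of that list, 11 fell and 1 rose, as they also did under the 3 scalings. The gene that rose was Prl8a2, with 21.9 and 24.7 FPKM in Ncr1Cre, against 3.35 and 4.12 FPKM in control (log2 fold change 2.36). Wnt4, named after its values were seen, did not pass the test. The ratio of Ctsk to the collagen gene Col1a1, chosen after the values were seen, was 0.0219 and 0.0225 in Ncr1Cre libraries, against 0.0126 and 0.0118 in control libraries. The 6 cathepsins that rose did so in libraries in which 12 of 12 epithelial markers rose (median log2 fold change 2.19), as they also did under the 3 scalings, and the part of each cell type in these differences was not tested.

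**Figure D3:**
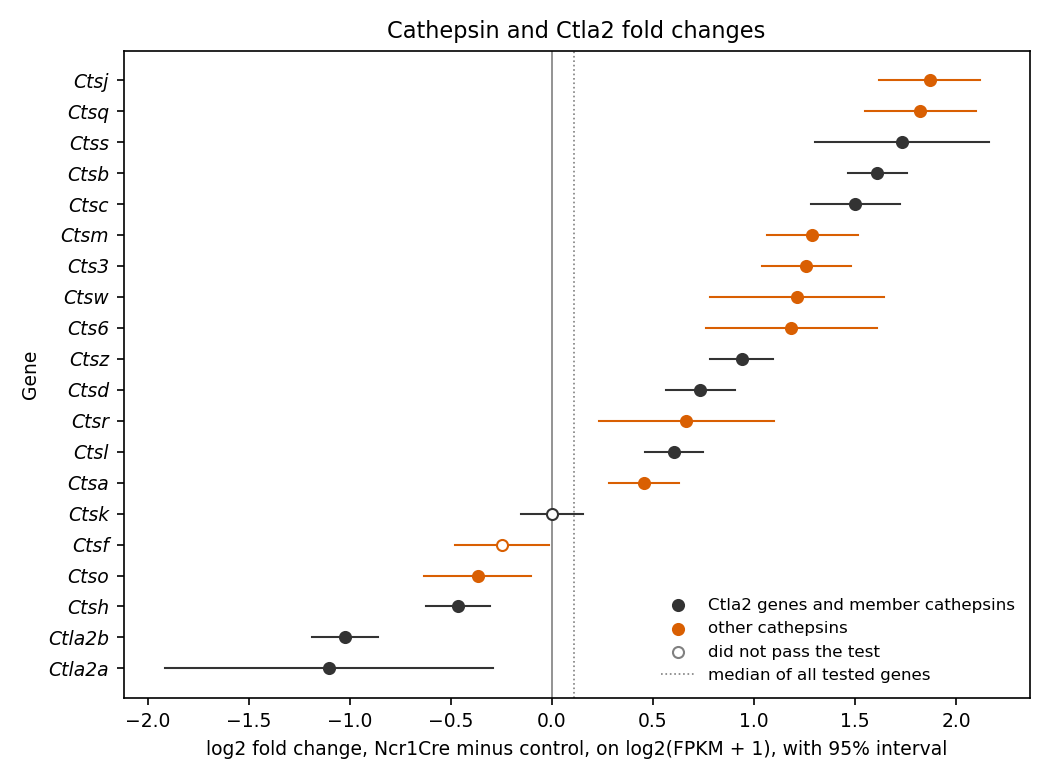
Log2 fold changes of FPKM + 1 (Ncr1Cre minus control) with 95% intervals from limma, for the Ctla2 genes and member cathepsins (black) and the other tested cathepsins (orange). Filled points passed the test, and the dotted line is the median of all tested genes at 0.11. The placental cathepsins Ctsj and Ctsq lie at the top, and Ctla2a, with the widest interval, at the bottom.

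Of 14 other cathepsins, 10 were tested, 8 of them rose and 1 fell, with a median log2 fold change of 1.20. The counts were 6 and 2 with libraries rescaled to the same sum and 7 and 2 with the other scalings. The largest changes were in placental cathepsins, a rodent family expressed in trophoblast. Ctsj had 24.8 and 27.4 FPKM in Ncr1Cre, against 6.06 and 6.76 FPKM in control (log2 fold change 1.87, limma adjusted p = 0.000283). Ctsq had 8.38 and 9.19 FPKM in Ncr1Cre, against 1.90 and 1.64 FPKM in control. Cts3 was the most abundant of them, at 106 and 111 FPKM in Ncr1Cre, against 47.8 and 42.0 FPKM in control. Ctsm rose as well, by 1.29 on the log2 scale, and Cts7 and Cts8 were listed at 0 in all 4 libraries. This family too arose by duplication, which leaves the value of each member uncertain.

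The 8 placental cathepsins summed to 166 and 176 FPKM in the Ncr1Cre libraries, against 65.8 and 61.7 FPKM in the control libraries. Trophoblast markers rose in the same libraries, in 6 of 6 tested of 11 listed, and summed to 1302 and 1485 FPKM in Ncr1Cre, against 473 and 522 FPKM in control, with Gcm1 listed at 0 in all. The summed placental cathepsins stood to Tpbpa, a spongiotrophoblast gene next to Ctla2a in the order given above and was chosen after its values were seen, as 0.366 and 0.340 in Ncr1Cre libraries, against 0.460 and 0.370 in control libraries. The part of trophoblast RNA was not tested. Ctsw, a cathepsin of NK and cytotoxic T cells, had 8.59 and 6.58 FPKM in Ncr1Cre, against 3.07 and 2.32 FPKM in control (log2 fold change 1.21, limma adjusted p = 0.00403).

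In a list of cystatins, relatives of cystatins and legumain, 3 of 5 tested genes rose and 0 fell, with 12 listed. Of all tested genes, 30.9% were called higher and 17.6% lower. Lgmn, which encodes legumain, a protease that processes cathepsins, had 86.8 and 83.9 FPKM in Ncr1Cre, against 36.8 and 35.4 FPKM in control (log2 fold change 1.22, limma adjusted p = 0.000306). Cstb, the cytosolic cystatin B, had 122 and 128 FPKM in Ncr1Cre, against 81.7 and 87.0 FPKM in control. Fetub, of the cystatin superfamily, had 2.53 and 3.56 FPKM in Ncr1Cre, against 1.06 and 1.00 FPKM in control.

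For the secreted inhibitor cystatin C, RNA did not rise as that of Ctsl did. Its gene Cst3 had 463 and 436 FPKM in Ncr1Cre, against 528 and 476 FPKM in control (log2 fold change -0.16, limma adjusted p = 0.156), and it passed the test as lower under each of the 3 scalings (-0.34 to -0.45). The Cst3 to Ctsl ratio was 0.859 and 0.813 in Ncr1Cre, against 1.50 and 1.34 in control. Cst7, whose product cystatin F inhibits cathepsin C, was low, with 0.992 and 1.80 FPKM in Ncr1Cre, against 0.618 and 0.596 FPKM in control, and its ratio to Ctsc overlapped between the genotypes.

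Other lysosomal genes moved in both directions, as did all tested genes, of which 30.9% were called higher and 17.6% lower. Of 38 tested lysosomal genes, 15 rose and 8 fell as deposited. Their median log2 fold change was 0.09, beside 0.11 over all tested genes. With libraries rescaled to the same sum 8 rose and 15 fell, and with the other 2 scalings 9 rose and 13 fell. Neu1, a sialidase whose stability depends on the protein of Ctsa, had 62.8 and 56.3 FPKM in Ncr1Cre, against 19.67 and 17.97 FPKM in control. Scarb2 and Cln3 rose by 0.88 and 1.04 on the log2 scale. Lipa, the acid lipase, fell to 7.67 and 7.22 FPKM in Ncr1Cre, against 16.5 and 16.9 FPKM in control. The membrane protein gene Lamp1, chosen after its values were seen, had 205 and 204 FPKM in Ncr1Cre, against 200.3 and 202 FPKM in control, and did not pass the test.

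**Figure D4:**
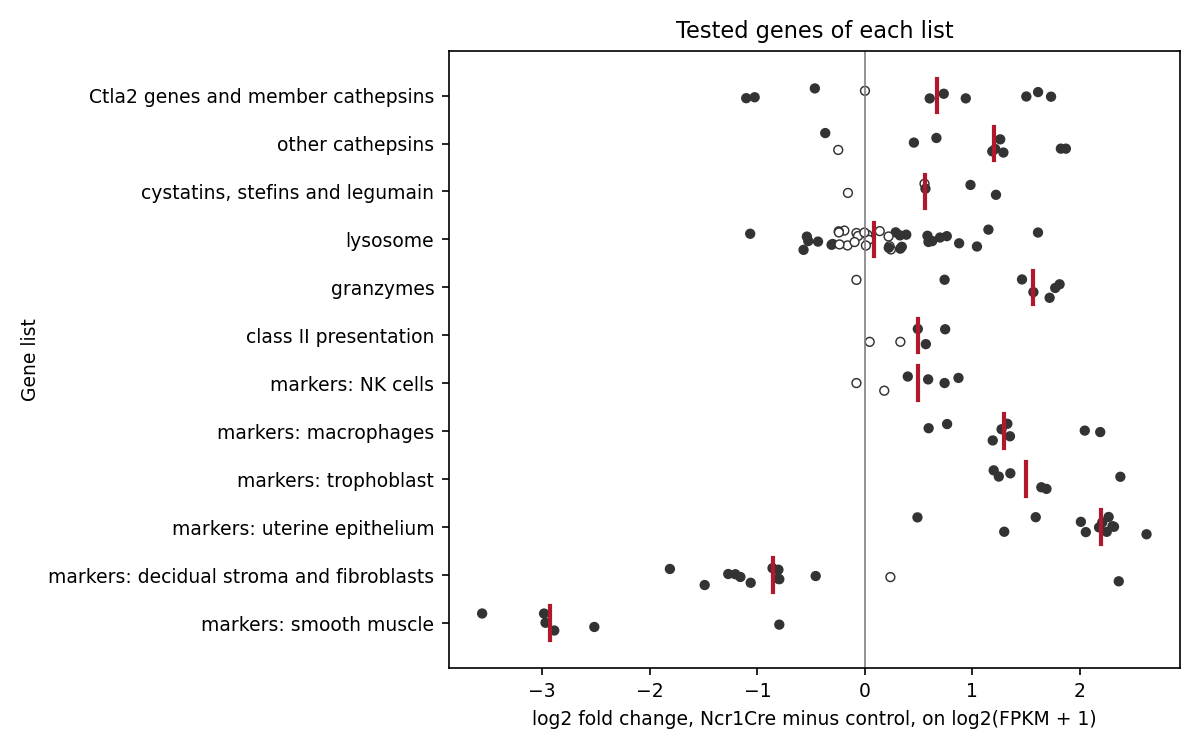
Log2 fold changes of FPKM + 1 (Ncr1Cre minus control) of the tested genes of 12 lists. Each point is a gene, filled where it passed the test, and red bars are medians, which are 0.67 for the Ctla2 genes and member cathepsins, 0.09 for lysosomal genes and 2.19 for epithelial markers.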

How the data were processed

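RNA sequencing of 4 libraries was compared, with groups and replicate numbers from the labels. The rest of the genotype, which all 4 libraries share, is not reported here. The deposited values are gene-level FPKM, which the authors computed with Cufflinks and mm9 (per the submitters' processing notes, no version). Neither the aligner nor the annotation is stated, and how multiply mapped reads were handled is not given in the sources used here. Symbols changed into dates by a spreadsheet (27) were restored through identifiers.

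FPKM are not counts, so limma 3.58.1 in R 4.3.3 was run on log2(FPKM + 1), with a trend on intensity, for 11762 genes (mean of at least 1 FPKM over 4 libraries), two-sided, with Benjamini-Hochberg adjustment over all of them and calls under 0.05. It was tested on simulated data. Implied totals come from low values of genes with 1 transcript: 30.7% to 37.0% were whole fragments within 0.02, so the totals are estimates and were put to no count test. Replicates differed by more than sampling noise at these totals (median chi-square 2.27 in Ncr1Cre and 2.21 in control, against 0.455), which does not show whether they are separate samples. Each was counted as 1 replicate, following the labels.

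The members and lists were chosen with earlier results of these data known. The text names the 10 members, up to 5 called genes of each list by smallest p and fixed pairs, and any gene outside this rule is marked as such. Sequences come from RefSeq (GRCm38.p6) and GENCODE M21, a newer build than mm9, and were aligned with Biopython 1.88. Alternatives covered the pseudocount, the filter, scaling, a replicate block and leaving out each library.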

Additional observations from a re-analysis of the deposited data

How the results depend on the processing

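Under the alternatives run, the 9 genes other than Ctsk kept their direction in 98 of 98 values and their call in 96. The exceptions were Ctla2a without a filter (adjusted p = 0.0906 in limma) and without Ncr1Cre replicate 1 (0.0613). Ctss fell below a filter of 5 FPKM and has no value there. The quantile value of Ctla2a is counted here with the limit given above. The log2 fold change of Ctsk, 0.00 as deposited, was -0.24 with libraries rescaled to the same sum, -0.18 to the same median and -0.15 with quantile normalization, and leaving out 1 library gave -0.0103 to 0.012. The cause was not tested. Members called higher numbered 5 or 6 and members called lower 2 to 4, and all genes called numbered 4037 to 6004. Titles give the genotypes the same replicate numbers, and the correlation over genes of replicate 1 minus replicate 2 was 0.161 between genotypes. With 2 pairs and no label that ties the numbers to a mouse or a batch, they were not taken as pairs, and whether they mark something shared was not settled. The replicate block gave 6004 calls, 6 members higher and 3 lower. With 2 libraries per genotype the spread of a gene is largely borrowed from other genes, and when 1 library is left out the lone one is assumed to vary like the others. Depth limits mainly Ctss and the placental cathepsins at a few FPKM.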
